A study of Homo sapiens with 12 samples.

Results

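The genes of Mediator, of RNA polymerase II (Pol II) and of the factors that govern its pausing and elongation were examined across an RNA sequencing experiment in A375, an established human melanoma cell line. Members were taken by gene symbol alone: Mediator subunits (MED genes with CDK8, CDK19 and CCNC), Pol II subunits POLR2A to POLR2L, NELF, the SUPT genes of DSIF, SPT6 and FACT, the ELL, EAF and AFF genes, the PAF1 complex, and the kinases CDK7, CDK12 and CDK13 with cyclins CCNH and CCNK. In all, 71 of the 56609 symbols in the deposited table matched, and all 71 were among the 21698 genes that passed a filter on low counts. Cells were wild type or carried a CRISPR/Cas9 knockout of MAPKAPK2, which encodes MK2, a kinase of the p38 stress pathway. Each genotype was kept for 48 h with 500 nM JQ1, which displaces BET bromodomain proteins from acetylated chromatin, or with its solvent DMSO. There were 4 groups of 3 replicates: wild-type DMSO, wild-type JQ1, knockout DMSO and knockout JQ1. The DMSO libraries are called untreated in their titles, and the treatment label was followed. How the knockout lines were isolated, and whether they were 1 clone, is not given in the sources used here. Nothing says that replicates came from separate cultures, so p-values measure the spread between these samples, which may be technical.

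Mediator is a large complex that carries signals from DNA-bound activators to Pol II at promoters. Its head and middle modules contact the polymerase, MED14 is the scaffold that holds the modules together, the tail receives activators, and a separable kinase module of CDK8 or CDK19 with cyclin C, MED12 and MED13 restrains the contact with Pol II. Soon after initiation Pol II is held by NELF and DSIF. P-TEFb, often as part of the super elongation complex built on AFF scaffolds with ELL proteins, releases it, and the PAF1 complex, SPT6 and FACT accompany it through chromatin. BET proteins act in this step by bringing in Mediator and P-TEFb.

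The libraries held between 25316899 and 34594295 estimated counts. MAPKAPK2 itself was lower in the knockout by a log2 fold change of -2.85 (SE 0.09, edgeR adjusted p 3.60e-11) in DMSO and of -3.02 (SE 0.09, edgeR adjusted p 1.54e-11) in JQ1. Knockout JQ1 replicate 3 stood apart from its replicates, with a chi-square per degree of freedom of 23.8 and 25.1 where other pairs of replicates gave 3.21 to 7.05. Of the 8 melanocyte markers, SOX10 (389 to 687 CPM, read counts scaled to a library of 1000000), MITF (25.6 to 44.1 CPM) and S100B (27.8 to 49.1 CPM) were present, while TYR, DCT and TYRP1 were under 1 CPM in every library and PMEL and MLANA reached at most 1.45 CPM. Summed markers of keratinocytes (at most 7.12 CPM), fibroblasts (1.16 to 6.53 CPM), endothelium (0.812 to 2.35 CPM) and leukocytes (0.852 to 1.52 CPM) were low. The fibroblast sum was lower with JQ1, at 1.16 to 1.60 CPM against 4.99 to 6.53 CPM in DMSO, and its part in the results was not tested.

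The 250 bases upstream of the annotated start are printed here for POLR2L, the Pol II subunit with the largest rise with JQ1 after the sparsely counted POLR2A, for POLR2B, a large Pol II subunit with a small difference that was not called, and for the Mediator genes with the largest rise in wild type (MED19) and the largest fall (MED12). They come from RefSeq on GRCh38.p14 and run 5′ to 3′ on the gene's strand. Capitals mark CCGGAA, the core bound by ETS factors, and GGGCGG, the GC box bound by SP factors, on either strand.
POLR2L, chr11:842530-842779, minus strand: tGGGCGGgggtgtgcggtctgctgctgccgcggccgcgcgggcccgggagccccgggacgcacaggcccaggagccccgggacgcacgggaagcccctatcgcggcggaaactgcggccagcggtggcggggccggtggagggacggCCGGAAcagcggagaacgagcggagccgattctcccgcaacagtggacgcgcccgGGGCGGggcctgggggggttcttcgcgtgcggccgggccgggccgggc
POLR2B, chr4:56978646-56978895, plus strand: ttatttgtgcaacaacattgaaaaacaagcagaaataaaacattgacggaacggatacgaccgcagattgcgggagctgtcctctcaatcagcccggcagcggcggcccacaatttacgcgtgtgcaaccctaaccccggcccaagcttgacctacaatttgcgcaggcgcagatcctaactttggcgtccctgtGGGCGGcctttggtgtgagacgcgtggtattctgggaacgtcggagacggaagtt
MED19, chr11:57712216-57712465, minus strand: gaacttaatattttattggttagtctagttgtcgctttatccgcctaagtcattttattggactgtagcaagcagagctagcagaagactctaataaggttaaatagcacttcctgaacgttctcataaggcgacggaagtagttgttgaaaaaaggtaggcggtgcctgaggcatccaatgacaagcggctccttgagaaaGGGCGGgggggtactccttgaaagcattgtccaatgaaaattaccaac
MED12, chrX:71118346-71118595, plus strand: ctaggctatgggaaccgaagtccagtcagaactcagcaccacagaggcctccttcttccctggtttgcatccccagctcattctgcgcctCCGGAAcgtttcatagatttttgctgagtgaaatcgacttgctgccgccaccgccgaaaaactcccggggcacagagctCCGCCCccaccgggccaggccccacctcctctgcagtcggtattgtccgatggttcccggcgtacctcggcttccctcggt

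Of the 71 genes, 57 had an upstream sequence in the RefSeq table. On either strand CCGGAA was found in 21 of these (36.8%), against 14.8% of all 27305 upstream sequences, and GGGCGG in 41 (71.9%), against 42.3%. TATAAA was found in 2 (3.51%, against 11.1%), CCAAT in 15 (26.3%, against 33.0%) and CACGTG, the E-box, in 5 (8.77%, against 6.49%). The 27305 sequences were not limited to expressed genes, whereas all 71 genes passed the filter on low counts. Shares among expressed genes were not counted, so these differences cannot be read as particular to the 71. Among the 14 matched genes that rose with JQ1 in both genotypes, 6 held CCGGAA (42.9%) and 12 held GGGCGG (85.7%). Of the 34 matched genes called in neither genotype, 11 (32.4%) and 22 (64.7%) did. The other motifs were less frequent in the set that rose. CCAAT was in 3 of its genes (21.4%) against 11 (32.4%), CACGTG in 1 (7.14%) against 3 (8.82%) and TATAAA in 0 against 2 (5.88%). The differences between these sets were not tested. MED12, which fell, also held both. Each motif was searched on its own, so matches of different motifs may share letters, and a match is a description of the sequence, not of a bound factor.

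Levels were compared between genes as CPM per kilobase of the longest coding transcript in GENCODE release 29. In wild-type DMSO cells the highest were SUPT16H, the large subunit of the histone chaperone FACT, at 72.5 CPM per kb, and POLR2B, the second-largest Pol II subunit, at 62.9 CPM per kb. POLR2G, POLR2K and POLR2J followed at 59.3, 58.4 and 52.3 CPM per kb. The lowest were MED12L (0.769 CPM per kb), AFF3 (0.330), POLR2A (0.305) and ELL3 (0.0465). POLR2A encodes the largest, catalytic subunit, which the polymerase cannot lack, yet it had only 10 to 100 counts in a library, where POLR2B had 6981 to 9765. In GENCODE release 29 its transcript of 6751 bases is typed as a processed transcript and only a transcript of 2083 bases is typed as coding. Which transcripts the authors summed for POLR2A is not given in the sources used here, so its values cannot be read as the level of the full mRNA.

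**Figure D1:**
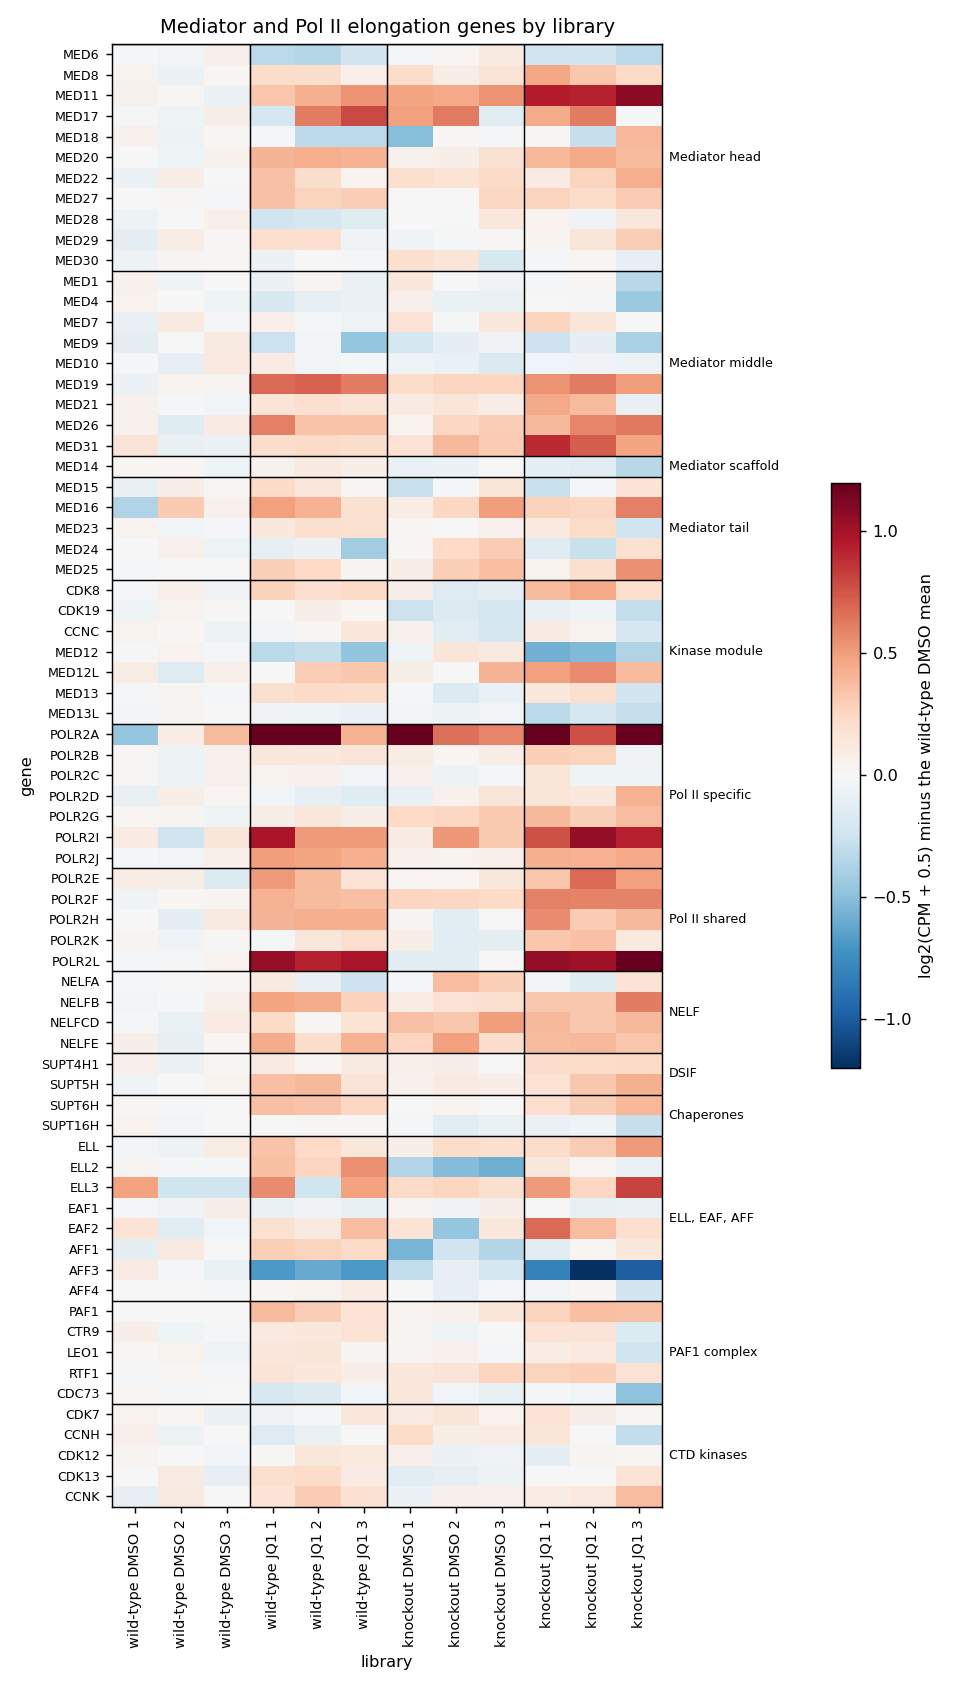
Levels of all 71 genes in the 12 libraries, as log2(CPM + 0.5) minus the mean of the 3 wild-type DMSO libraries, with genes ordered by role and the colour scale ending at 1.2 in either direction. POLR2L and MED11 are red in all 6 JQ1 libraries, MED12 and AFF3 are blue in them, and the CTD kinases at the bottom stay near white.

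JQ1 moved this machinery in a mixed way, with more genes higher than lower. In wild-type cells 21 of 71 genes rose and 4 fell (edgeR quasi-likelihood test, Benjamini-Hochberg adjusted p under 0.05), that is 29.6% and 5.63%. Of all genes tested 33.1% were called, 16.9% higher and 16.2% lower. Among the genes expressed at 5 CPM or more on average, 28.3% rose and 18.1% fell, so the share that rose was near the background of expressed genes and the share that fell was below it. In knockout cells the counts were again 21 higher and 4 lower, against 16.7% and 17.8% of all genes tested (34.4% in either direction) and 27.3% and 21.9% of those with at least 5 CPM. All 3 JQ1 libraries lay above all 3 DMSO libraries for 34 genes and below for 8 in wild type, where 24.4% and 26.0% of all genes tested did, and for 26 and 5 in knockout, where 20.3% and 22.0% did. The median log2 fold change of the 71 was 0.14 in wild type and 0.10 in knockout, beside -0.034 and -0.004 over all genes tested. Most changes were small: 65 of the 71 moved by less than 0.5 on the log2 scale in wild type.

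The fitted direction was the same in both genotypes, which have no library in common, for 61 of the 71 genes. Both genotypes called 17 genes higher (12.8% of all genes tested were higher in both) and 3 lower (12.4%). Those higher were 6 Pol II subunits (POLR2E, POLR2F, POLR2H, POLR2I, POLR2J and POLR2L) with CDK8, MED11, MED19, MED20, MED26, AFF1, ELL2, NELFB, PAF1, SUPT5H and SUPT6H. AFF3, MED6 and MED12 were lower. None was called in opposite directions, and 41 were called in neither genotype. The shares of all genes with the same fitted direction, with opposite calls or called in neither genotype were not counted. Scaling by library totals alone moved the median of all genes to -0.162 in wild type and -0.119 in knockout, and the split of the 71 to 13 higher and 8 lower in wild type and 14 and 10 in knockout, beside 10.6% higher and 24.7% lower of all genes in wild type and 11.1% and 24.2% in knockout. Under that scaling the calls of AFF1, CDK8, ELL, MED27, NELFE, PAF1, POLR2E and SUPT5H were lost in wild type, and those of MED8, MED26, NELFB, PAF1, POLR2K, SUPT4H1 and SUPT5H in knockout, and none reversed. The knockout call of MED8 was lost under 14 of 20 alternatives (adjusted p from 0.0507 to 0.424), 10 of them single libraries left out. When knockout JQ1 replicate 3 was left out, the counts were 30 higher and 4 lower in wild type and 25 and 6 in knockout. The shares of all genes called without that library were not counted.

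**Figure D2:**
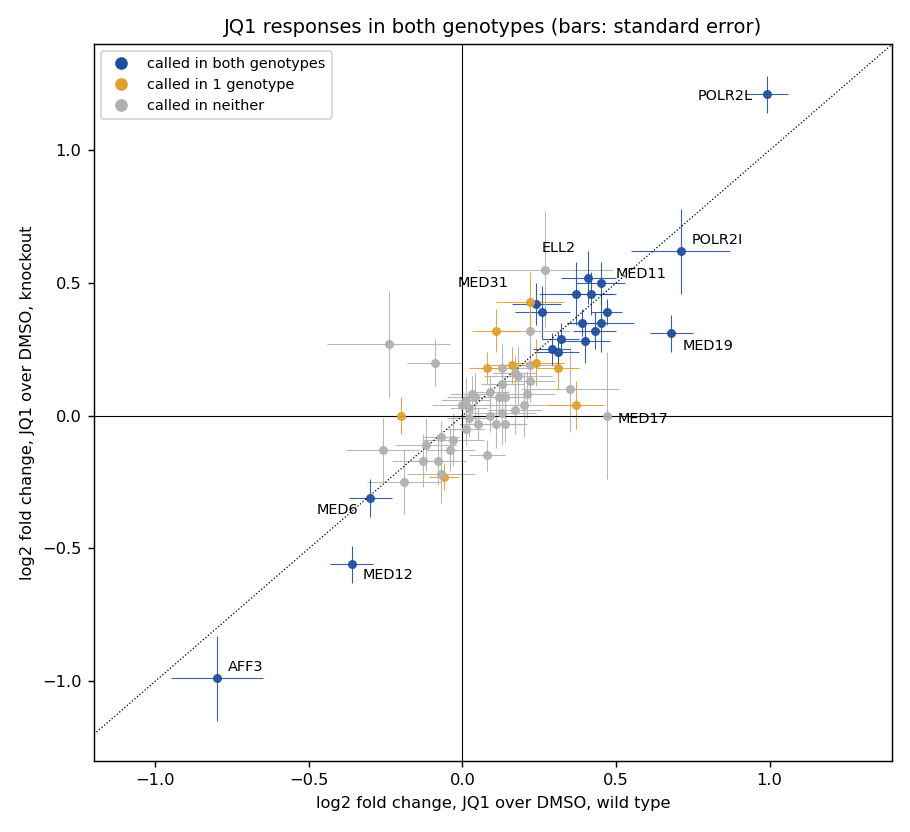
Log2 fold change with JQ1 in wild type (horizontal) and in knockout (vertical) for 69 genes, with standard errors as bars; POLR2A and ELL3 are left out for their low counts. POLR2L at 0.99 and 1.21 and AFF3 at -0.80 and -0.99 lie at the ends of the dotted line of equal response, and MED19 at 0.68 and 0.31 lies below it.

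Of the 12 Pol II subunits 7 rose in wild type and 7 in knockout, beside 16.9% and 16.7% of all genes tested and 28.3% and 27.3% of those with at least 5 CPM. None fell, and the median log2 fold change was 0.38 and 0.37. The 7 in wild type include the sparsely counted POLR2A. The 5 subunits that Pol II shares with Pol I and Pol III gave 4 rises in wild type and 5 in knockout, with a median of 0.39 and 0.46.

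POLR2L, a small shared subunit needed for assembly of the enzyme, had the largest response that rests on ample counts. Its level was 40.8, 41.1 and 42.8 CPM in wild-type DMSO and 86.4, 79.3 and 82.7 CPM in wild-type JQ1. In knockout it was 38.1, 38.1 and 41.4 CPM in DMSO and 86.9, 84.6 and 101 CPM in JQ1. No JQ1 library came near a DMSO library of its genotype, with log2 fold changes of 0.99 (SE 0.07, edgeR adjusted p 1.29e-07) and 1.21 (SE 0.07, edgeR adjusted p 1.37e-08). Without knockout JQ1 replicate 3 the knockout value was 1.13 (edgeR adjusted p 1.11e-09). By the GENCODE annotation, 22.5% of the exon bases of POLR2L lie opposite exons of CD151, a tetraspanin gene, which rose by 0.92 and 0.78. The libraries were directional, but whether the counting used strand is not given in the sources used here, so the share of reads that could pass between them was not tested.

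POLR2I, a subunit that acts in proofreading, was at 7.75, 6.05 and 8.03 CPM in wild-type DMSO and at 14.7, 10.5 and 10.5 CPM in wild-type JQ1. Knockout libraries gave 7.76, 10.6 and 9.13 CPM in DMSO and 12.6, 15.5 and 14.2 CPM in JQ1. The groups did not overlap within either genotype, and POLR2I rose by 0.71 (SE 0.16, edgeR adjusted p 0.0031) and 0.62 (SE 0.16, edgeR adjusted p 0.00638). Of its exon bases 32.9% lie opposite TBCB, a tubulin chaperone gene, which rose by 0.81 and 0.68. POLR2J, which pairs with POLR2C in the assembly platform, rose by 0.47 (SE 0.05, edgeR adjusted p 8.64e-06) and 0.39 (SE 0.05, edgeR adjusted p 5.12e-05). It was at 47.5 to 50.7 CPM in the 6 DMSO libraries and at 65.1 to 69.2 CPM in the 6 JQ1 libraries. Near-identical copies share its sequence, so reads could be split among them. POLR2J2 fell by 0.49 in wild type (edgeR adjusted p 0.0186) and had 0.15 in knockout. POLR2J3 had -0.21 and 0.30, neither called, and POLR2J4 had 0.23 in wild type and rose by 0.62 in knockout (edgeR adjusted p 3.84e-04).

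The other shared subunits rose less. POLR2F was at 70.1, 73.9 and 74.7 CPM in wild-type DMSO and 97.4, 95.2 and 94.0 CPM in wild-type JQ1, a log2 fold change of 0.39 (SE 0.05, edgeR adjusted p 2.61e-05). Its rise in knockout was 0.35 (SE 0.05, edgeR adjusted p 6.38e-05), from 86.3 to 87.5 CPM up to 110 to 111 CPM. SOX10 lies opposite 1.26% of the exon bases of POLR2F. With JQ1 SOX10 rose by 0.37 in wild type and 0.36 in knockout (edgeR adjusted p 0.0189 and 0.019). The share of reads that could pass between these 2 genes was not tested. POLR2H rose by 0.42 and 0.46 (edgeR adjusted p 6.23e-04 and 2.83e-04), and POLR2E by 0.37 and 0.46 (edgeR adjusted p 0.0241 and 0.00608). The wild-type call of POLR2E was lost under 6 of 20 alternatives, with adjusted p from 0.0672 to 0.183, among them leaving out DMSO replicate 3, JQ1 replicate 1 or JQ1 replicate 2 of the wild type. Its knockout call was lost with the authors' factors and with limma on their signal (adjusted p 0.114 and 0.109). POLR2K was called in knockout, at 0.32 (edgeR adjusted p 0.00634) beside 0.11 (edgeR adjusted p 0.338) in wild type, and the difference between genotypes was 0.21 (SE 0.12, edgeR adjusted p 0.649).

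POLR2B and POLR2C were not called over the 12 libraries. POLR2B was at 247 to 268 CPM in wild-type DMSO and 282 to 286 CPM in wild-type JQ1, with log2 fold changes of 0.13 (SE 0.07) and 0.12 (SE 0.07; edgeR adjusted p 0.18 and 0.244). Knockout JQ1 replicate 3, at 250 CPM, lay below the other JQ1 libraries of the knockout. Without it POLR2B rose by 0.13 (edgeR adjusted p 0.0153) and 0.22 (edgeR adjusted p 0.00135). The wild-type contrast does not hold that library: its value stayed at 0.13, and its SE went from 0.07 to 0.04. In a fit of the wild-type groups alone POLR2B also passed, at 0.15 (edgeR adjusted p 0.0117). POLR2C was at 0.02 and 0.03 (SE 0.06 each). POLR2A had a log2 fold change of 1.70 (SE 0.46, edgeR adjusted p 0.0108) in wild type and 0.70 (SE 0.42, edgeR adjusted p 0.225) in knockout. Its libraries were at 0.298, 0.673 and 0.935 CPM in wild-type DMSO and at 2.39, 2.97 and 0.976 CPM in wild-type JQ1. The wild-type call of POLR2A was lost without DMSO replicate 1 or JQ1 replicate 2 of the wild type, at adjusted p 0.053 and 0.0554, over alternatives whose log2 fold changes ran from 1.36 to 2.13.

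A ratio of counts within a library does not depend on how libraries are scaled. The counts of POLR2L over POLR2B were 0.157, 0.166 and 0.160 in wild-type DMSO and 0.305, 0.281 and 0.290 in wild-type JQ1, a change of 1.81-fold. In knockout the ratio was 0.139, 0.145 and 0.152 in DMSO and 0.276, 0.272 and 0.405 in JQ1, a change of 2.18-fold, with the highest value in replicate 3. The POLR2J over POLR2B ratio was 1.26-fold and 1.22-fold higher with JQ1, again with no overlap. In knockout it was 0.184, 0.191 and 0.187 in DMSO and 0.207, 0.209 and 0.268 in JQ1, again with the highest value in replicate 3. Subunits of 1 enzyme thus did not move by equal factors at the RNA level.

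**Figure D3:**
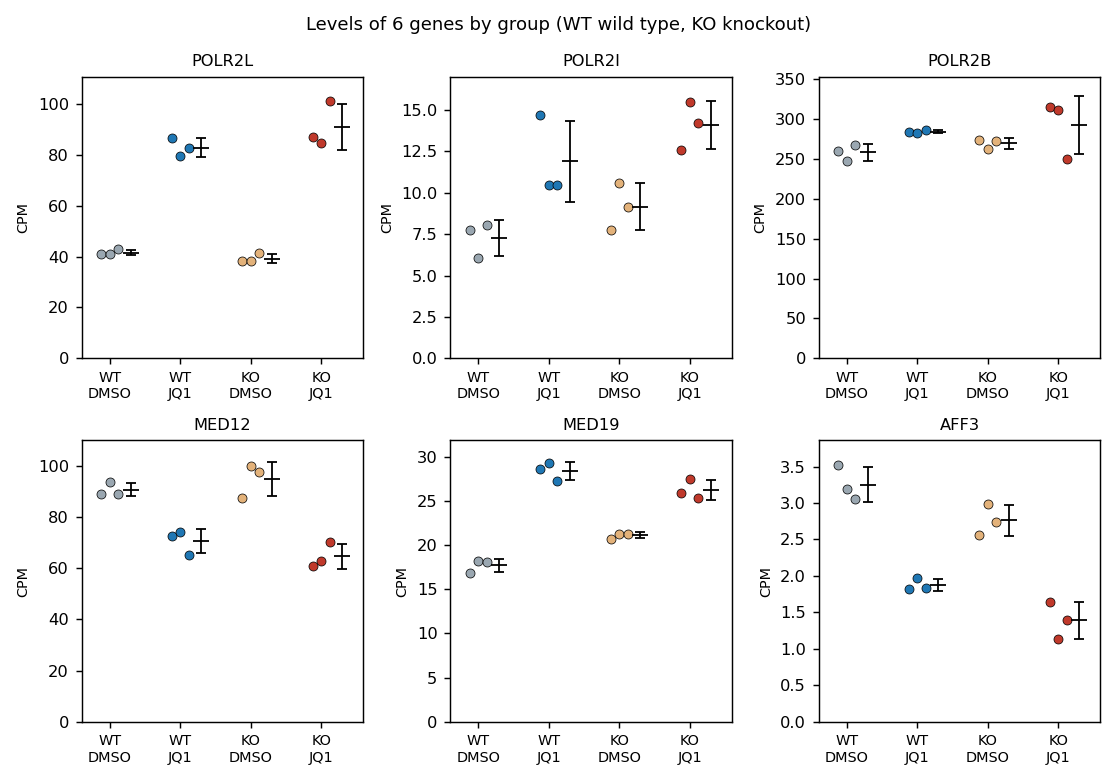
CPM of 6 genes in the 12 libraries, with the mean and SD of the 3 replicates beside each group; vertical axes start at 0. POLR2L stands at 38.1 to 42.8 CPM in DMSO and 79.3 to 101 CPM in JQ1, POLR2B overlaps between treatments in knockout, and MED12 and AFF3 are lower with JQ1 in both genotypes.

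Of the 33 Mediator genes 6 rose and 3 fell in wild type, and 7 rose and 3 fell in knockout, with a median log2 fold change of 0.13 and 0.07. The shares that rose were near those of all genes tested (16.9% and 16.7%) and below those of genes with at least 5 CPM (28.3% and 27.3%). Rises lay in the head and middle modules and in CDK8. None of the 5 genes grouped as tail was called over the 12 libraries, with log2 fold changes with JQ1 from -0.25 to 0.35. This rests on the grouping used here, which placed MED27 to MED30 in the head. Of these MED27 was called higher and MED28 lower, both in wild type only. Leaving out knockout JQ1 replicate 3, the tail gene MED24 fell by 0.40 in knockout (edgeR adjusted p 0.0074) where it had -0.25, and MED23 rose by 0.17 in wild type (edgeR adjusted p 0.0155). MED16, another tail gene, at 0.35 (edgeR adjusted p 0.0999) in wild type, passed without wild-type DMSO replicate 2, at 0.52 (edgeR adjusted p 0.0261). Over the whole of Mediator the counts without knockout JQ1 replicate 3 were 11 higher and 3 lower in wild type and 9 and 4 in knockout. The shares of all genes in that setting were not counted.

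MED19, a middle-module subunit, had the largest Mediator rise in wild type. It was at 16.8, 18.2 and 18.1 CPM in wild-type DMSO and 28.6, 29.3 and 27.3 CPM in wild-type JQ1. In knockout it was at 20.7, 21.3 and 21.3 CPM in DMSO and 25.9, 27.5 and 25.3 CPM in JQ1. All JQ1 libraries were above all DMSO libraries, with log2 fold changes of 0.68 (SE 0.07, edgeR adjusted p 2.48e-06) and 0.31 (SE 0.07, edgeR adjusted p 0.00212). The response differed between genotypes by -0.37 (SE 0.09), which did not pass the test over all genes (edgeR adjusted p 0.233).

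MED26, the middle-module subunit that contacts the super elongation complex, rose by 0.45 (SE 0.11, edgeR adjusted p 0.00557) and 0.35 (SE 0.11, edgeR adjusted p 0.0208). It was at 10.3 to 12.3 CPM in wild-type DMSO and 14.7 to 17.7 CPM in wild-type JQ1. Its knockout call was lost under 6 of 20 alternatives, with adjusted p from 0.0533 to 0.107, among them leaving out DMSO replicate 1 or JQ1 replicate 2 or 3 of the knockout. MED26 shares 27.2% of its exon bases with AC008764.1 on the same strand, and reads could be split between them. MED20, a head subunit, rose by 0.43 and 0.32 (edgeR adjusted p 2.48e-04 and 0.0025).

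MED6, a conserved head subunit that contacts Pol II, fell by similar amounts in both genotypes. Its level was 21.2, 21.1 and 22.6 CPM in wild-type DMSO against 17.2, 17.0 and 18.4 CPM in wild-type JQ1, and 21.2, 22.0 and 23.4 against 18.3, 18.4 and 17.2 CPM in knockout. No JQ1 library reached a DMSO library. The log2 fold changes were -0.30 (SE 0.07, edgeR adjusted p 0.00468) and -0.31 (SE 0.07, edgeR adjusted p 0.00448). MED28 fell by 0.20 (edgeR adjusted p 0.0359) in wild type, where it went from 43.5 to 47.4 CPM down to 38.3 to 41.1 CPM, and stood at 0.00 in knockout. That call was lost under 8 of 20 alternatives, with adjusted p from 0.0536 to 0.138, among them leaving out DMSO replicate 2 or 3, or JQ1 replicate 1 or 2, of the wild type. In addition 32.1% of its exon bases lie opposite FAM184B, whose log2 fold change with JQ1 was -0.59 in wild type and -0.01 in knockout.

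The scaffold MED14, the nuclear receptor contact MED1 and the tail subunit MED15 were not called with JQ1 over the 12 libraries, though MED14 passed in knockout without knockout JQ1 replicate 1, at -0.19 (edgeR adjusted p 0.0466), and MED1 and MED14 did so with library totals. MED1, at 152 to 167 CPM in all wild-type libraries, had log2 fold changes of -0.04 and -0.13 (SE 0.08 each). MED15 had 0.13 (SE 0.11) and 0.01 (SE 0.12). MED17, a head subunit, ranged from 9.89 to 20.2 CPM within wild-type JQ1 alone, and its log2 fold change of 0.47 (SE 0.24, edgeR adjusted p 0.151) was not called, but passed without wild-type JQ1 replicate 1, at 0.73 (edgeR adjusted p 0.0175). Part of its exon sequence is shared with AP001273.2 on the same strand.

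The kinase module showed opposite movements of its parts. MED12, which activates CDK8 through cyclin C, was at 89.2, 93.6 and 89.2 CPM in wild-type DMSO and 72.5, 74.3 and 65.3 CPM in wild-type JQ1. In knockout it was at 87.5, 100 and 97.5 CPM in DMSO and 60.8, 62.7 and 70.3 CPM in JQ1. Each JQ1 library was below each DMSO library, with log2 fold changes of -0.36 (SE 0.07, edgeR adjusted p 0.00145) and -0.56 (SE 0.07, edgeR adjusted p 3.30e-05). Leaving out knockout JQ1 replicate 3 gave -0.62 in knockout (edgeR adjusted p 3.94e-06). Its paralog MED12L, far lower per kilobase, had log2 fold changes of 0.22 (SE 0.13) and 0.32 (SE 0.13, edgeR adjusted p 0.0677), and the latter passed without knockout JQ1 replicate 3 (0.38, edgeR adjusted p 0.0491) and without knockout DMSO replicate 3 (0.47, edgeR adjusted p 0.0154).

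CDK8, the module's kinase, rose by 0.24 (SE 0.08, edgeR adjusted p 0.0336) in wild type and 0.42 (SE 0.08, edgeR adjusted p 9.85e-04) in knockout. Its libraries were at 25.5, 27.1 and 25.2 CPM in wild-type DMSO and 31.6, 29.8 and 30.4 CPM in wild-type JQ1. In knockout they were at 27.3, 23.3 and 23.8 CPM in DMSO and 33.9, 35.7 and 29.9 CPM in JQ1. The wild-type call was lost under 6 of 20 alternatives, with adjusted p from 0.0576 to 0.344: with library totals, and on leaving out DMSO replicate 1 or 3 or any 1 of the 3 JQ1 libraries of the wild type. The paralog kinase CDK19 had 0.03 and 0.08 (SE 0.07 each), and cyclin C (CCNC) 0.04 and 0.07 (SE 0.09 each), and neither was called.

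Ratios between paralogs were read within libraries. CDK8 over CDK19 counts were 0.891, 0.890 and 0.845 in wild-type DMSO, 1.07, 0.961 and 1.01 in wild-type JQ1, 1.11, 0.883 and 0.933 in knockout DMSO and 1.22, 1.25 and 1.23 in knockout JQ1. The ratio was higher with JQ1 in both genotypes with no overlap, by 1.16-fold and 1.27-fold, and under JQ1 it was 1.22-fold higher in knockout than in wild type, again with no overlap. MED12 over MED12L went from 10.1, 12.8 and 10.3 to 8.77, 7.30 and 6.26 in wild type and from 10.1, 12.2 and 8.79 to 5.15, 5.05 and 6.45 in knockout. MED13 over MED13L, the subunits that tether the module to Mediator, was 1.21-fold and 1.28-fold higher with JQ1. MED13 itself had log2 fold changes of 0.22 (SE 0.08, edgeR adjusted p 0.0564) and 0.13 (SE 0.08, edgeR adjusted p 0.254). When knockout JQ1 replicate 3 was omitted, the edgeR adjusted p of MED13 was 8.25e-04 in wild type and 8.36e-04 in knockout, where its log2 fold change was then 0.25, and with DESeq2 it passed in wild type (adjusted p 0.0364). MED13L fell in knockout by 0.23 (SE 0.05, edgeR adjusted p 0.00242) and stood at -0.06 (SE 0.05, edgeR adjusted p 0.429) in wild type. The difference of -0.17 (SE 0.07) between genotypes was not called (edgeR adjusted p 0.527).

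**Figure D4:**
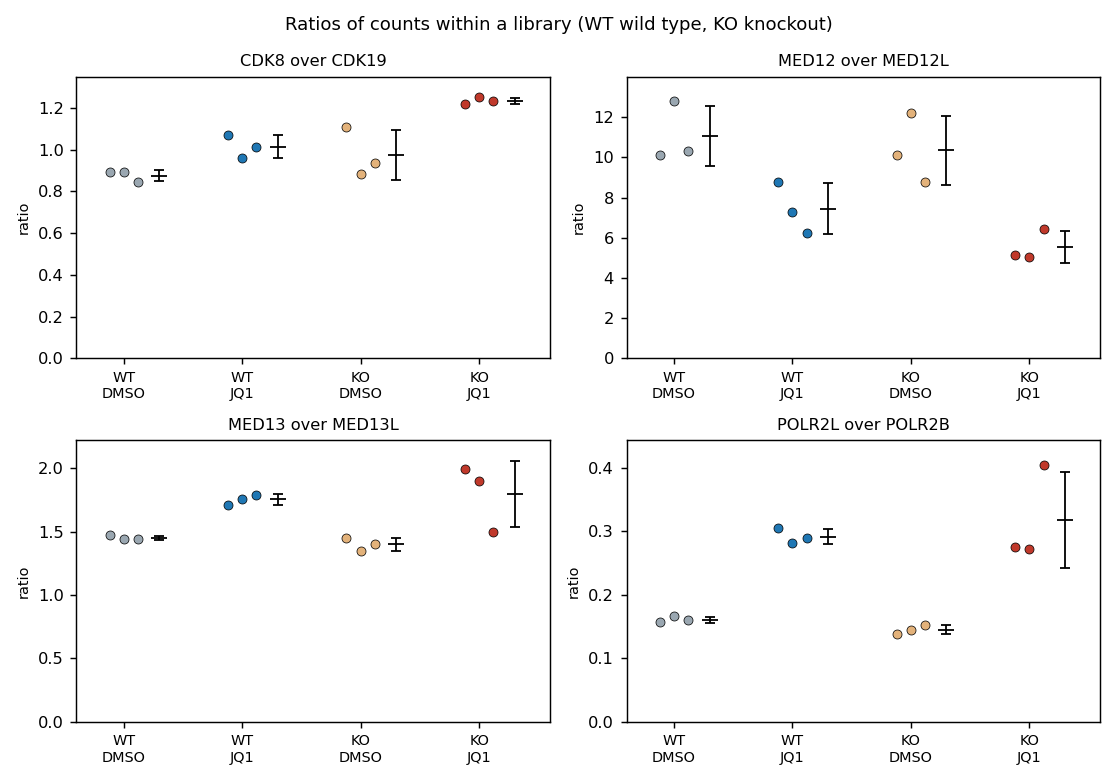
Ratios of counts of 4 gene pairs in each library, with the mean and SD of 3 replicates beside each group; vertical axes start at 0. CDK8 over CDK19 is 0.845 to 0.891 in wild-type DMSO and 1.22 to 1.25 in knockout JQ1, and MED12 over MED12L is lower in every JQ1 library than in every DMSO library of its genotype.

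Among pausing factors, NELFB, a subunit of the NELF core, rose by 0.40 (SE 0.08, edgeR adjusted p 0.00138) in wild type and 0.28 (SE 0.08, edgeR adjusted p 0.015) in knockout. Its libraries were at 57.0, 57.6 and 61.0 CPM in wild-type DMSO and 81.5, 80.1 and 71.1 CPM in wild-type JQ1, and at 62.3, 66.2 and 66.8 against 73.4, 73.4 and 89.9 CPM in knockout. With knockout JQ1 replicate 3 omitted, the knockout value was 0.17 (edgeR adjusted p 0.0457), and without knockout DMSO replicate 1 the call was lost (adjusted p 0.052, over alternatives up to 0.105). NELFE, the RNA-binding subunit, rose in wild type by 0.37 (SE 0.09, edgeR adjusted p 0.0044), from 25.4 to 28.7 CPM up to 31.7 to 37.2 CPM. In knockout NELFE stood at 0.04 (SE 0.09), and the difference of -0.32 (SE 0.12) was not called (edgeR adjusted p 0.495). NELFA had -0.07 and -0.22 (SE 0.11 each) and NELFCD 0.14 and -0.03 (SE 0.07 each), and none of these passed over the 12 libraries. NELFA passed in knockout without knockout JQ1 replicate 3 (-0.31, edgeR adjusted p 0.0486) or without knockout DMSO replicate 1 (-0.33, edgeR adjusted p 0.0313).

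SUPT5H, the large DSIF subunit that P-TEFb converts into an elongation factor, rose by 0.31 (SE 0.07, edgeR adjusted p 0.0042) and 0.24 (SE 0.07, edgeR adjusted p 0.0199). Wild-type libraries were at 105, 108 and 111 CPM in DMSO and 139, 142 and 120 CPM in JQ1, and knockout libraries at 112, 116 and 114 CPM and at 122, 135 and 145 CPM. The knockout call was lost under 5 of 20 alternatives, with adjusted p from 0.0502 to 0.192, among them leaving out DMSO replicate 1 or 3, or JQ1 replicate 3, of the knockout. Its small partner SUPT4H1 had 0.08 (SE 0.06) in wild type and rose by 0.18 (SE 0.06, edgeR adjusted p 0.0274) in knockout. That call was lost under 6 of 20 alternatives (adjusted p from 0.0527 to 0.466), among them leaving out DMSO replicate 1 or 3, or JQ1 replicate 2, of the knockout. AC004687.2 shares 63.7% of the exon bases of SUPT4H1 on the same strand.

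SUPT6H, the histone chaperone SPT6 that travels with Pol II, rose by 0.32 (SE 0.06, edgeR adjusted p 4.60e-04) and 0.29 (SE 0.06, edgeR adjusted p 8.51e-04). It was at 169 to 172 CPM in wild-type DMSO and 203 to 219 CPM in wild-type JQ1, and at 170 to 174 and 196 to 225 CPM in knockout, so no library overlapped between treatments. The FACT subunit SUPT16H, at 281 to 349 CPM, had 0.01 and -0.05 (SE 0.06 each) and was not called.

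The ELL, EAF and AFF genes of the super elongation complex split by member. AFF3, a low-level paralog of the AFF scaffolds, fell most of all 71 genes: 3.52, 3.19 and 3.05 CPM in wild-type DMSO against 1.82, 1.97 and 1.83 CPM in wild-type JQ1, and 2.56, 2.99 and 2.74 against 1.64, 1.14 and 1.39 CPM in knockout. No library overlapped between treatments, and the log2 fold changes were -0.80 (SE 0.15, edgeR adjusted p 9.00e-04) and -0.99 (SE 0.16, edgeR adjusted p 2.31e-04). It had between 28 and 118 counts in a library. AFF4, the scaffold with the highest level of the AFF genes per kilobase, had 0.05 and -0.03 (SE 0.06 each) and was not called.

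AFF1 rose by 0.26 (SE 0.09, edgeR adjusted p 0.0402) and 0.39 (SE 0.10, edgeR adjusted p 0.00494). It was at 22.8, 26.5 and 24.7 CPM in wild-type DMSO and 29.6 ± 0.612 CPM (SD, n = 3) in wild-type JQ1. The wild-type call was lost under 7 of 20 alternatives, with adjusted p from 0.0515 to 0.286: with library totals, and on leaving out DMSO replicate 1 or 3 or any 1 JQ1 library of the wild type, or knockout DMSO replicate 3. ELL2, an elongation factor that stimulates Pol II directly, rose by 0.41 (SE 0.09, edgeR adjusted p 0.00319) and 0.52 (SE 0.10, edgeR adjusted p 6.01e-04). It was at 20.8, 20.2 and 20.1 CPM in wild-type DMSO, 26.3, 24.5 and 30.1 CPM in wild-type JQ1, 13.4 to 15.9 CPM in knockout DMSO and 22.4, 20.7 and 19.2 CPM in knockout JQ1. JQ1 libraries of the knockout thus lay near the DMSO libraries of the wild type.

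ELL rose in wild type by 0.24 (SE 0.09, edgeR adjusted p 0.0407) and had 0.20 (SE 0.09, edgeR adjusted p 0.0858) in knockout. The wild-type call was lost under 9 of 20 alternatives, with adjusted p from 0.0518 to 0.301, among them leaving out DMSO replicate 1 or 2 or JQ1 replicate 1 or 2 of the wild type, or knockout DMSO replicate 3. The knockout value passed without knockout JQ1 replicate 1, at 0.26 (edgeR adjusted p 0.0367). EAF1, a cofactor of ELL proteins, had -0.07 and -0.08 (SE 0.06 each), and was called lower in both genotypes with library totals alone (-0.20 and -0.19). EAF2, with 36 to 88 counts in a library, had 0.27 and 0.55 (SE 0.22 each) and was not called over the 12 libraries, but passed in knockout without knockout JQ1 replicate 3, at 0.68 (edgeR adjusted p 0.0322). Nor was ELL3, which held at most 17 counts and passed in wild type only when DMSO replicate 1, the 1 wild-type DMSO library with any count, was left out.

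In the PAF1 complex, which carries histone modifiers with Pol II, only PAF1 was called over the 12 libraries, at 0.29 (SE 0.06, edgeR adjusted p 0.0032) in wild type and 0.25 (SE 0.06, edgeR adjusted p 0.00674) in knockout. PAF1 was at 44.3 to 44.6 CPM in wild-type DMSO and 50.0 to 58.1 CPM in wild-type JQ1. CTR9, LEO1, RTF1 and CDC73 had log2 fold changes from -0.13 to 0.14 in wild type and from -0.17 to 0.07 in knockout. Leaving out knockout JQ1 replicate 3, CTR9 also rose, by 0.14 in wild type (edgeR adjusted p 0.0321) and 0.17 in knockout (edgeR adjusted p 0.024), and in a fit of the wild-type groups alone CTR9 and RTF1 passed (edgeR adjusted p 0.0257 and 0.027). With library totals alone both calls of PAF1 were lost (adjusted p 0.0732 and 0.11).

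None of the 5 genes of the kinases that phosphorylate the Pol II tail was called over the 12 libraries. CDK7 had 0.02 and -0.01 (SE 0.07 each) and its cyclin CCNH -0.08 and -0.17 (SE 0.09 each). CDK12 had 0.09 and 0.00 (SE 0.06 each), CDK13 0.17 and 0.16 (SE 0.07 each; edgeR adjusted p 0.0572 and 0.0708) and their cyclin CCNK 0.22 and 0.19 (edgeR adjusted p 0.0876 and 0.151). These calls depended on setting and library. CDK13 passed in both genotypes with DESeq2, and in wild type without knockout JQ1 replicate 3 (edgeR adjusted p 0.0182), or without DMSO replicate 2 (0.0337) or JQ1 replicate 3 (0.0449) of the wild type. CCNK passed in wild type without knockout JQ1 replicate 3 (edgeR adjusted p 0.0358), where its knockout value was 0.09 and that of CCNH -0.05. CCNH passed in knockout without knockout JQ1 replicate 1, at -0.27 (edgeR adjusted p 0.0282). CDK12 over CDK13 counts overlapped between treatments in both genotypes.

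The knockout was compared with wild type within each treatment. In DMSO 6 of 71 genes were higher and 2 lower by the edgeR test, 8.45% and 2.82%, where 3.47% and 4.44% of all genes tested (7.92% in either direction) and 5.57% and 4.78% of those with at least 5 CPM were. Under JQ1 6 were higher and 3 lower, beside 3.01% and 5.56% of all genes (8.57% in either direction) and 4.63% and 6.87% of those with at least 5 CPM. The median log2 fold changes were 0.04 and 0.02. Called in both treatments were MED11, POLR2F and POLR2G as higher (1.52% of all genes tested) and ELL2 as lower (2.84%). In none of the 4 comparisons were 37 of the 71 called, and the share of all genes was not counted.

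MED11, a small head subunit, was at 13.7, 13.4 and 12.6 CPM in wild-type DMSO and 18.5, 18.3 and 19.5 CPM in knockout DMSO. Under JQ1 it was at 16.8, 18.0 and 19.4 CPM in wild type and 25.8, 25.5 and 28.3 CPM in knockout. Knockout and JQ1 were each associated with a higher level, and knockout JQ1 libraries were above all others. The knockout log2 fold change was 0.50 (SE 0.08, edgeR adjusted p 9.38e-04) in DMSO and 0.55 (SE 0.08, edgeR adjusted p 3.27e-04) in JQ1, and that of JQ1 was 0.45 (SE 0.08, edgeR adjusted p 5.41e-04) in wild type and 0.50 (SE 0.08, edgeR adjusted p 1.58e-04) in knockout. All 4 calls of MED11 held under the 20 alternatives. Of its exon bases 31.1% lie opposite AC091153.4.

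MED31, a middle-module subunit, was at 17.1, 14.4 and 14.6 CPM in wild-type DMSO, 17.8, 18.1 and 17.8 CPM in wild-type JQ1, 17.3, 20.2 and 19.1 CPM in knockout DMSO. In knockout JQ1 it was at 25.4 ± 3.75 CPM (SD, n = 3), with no overlap with knockout DMSO. It was higher in knockout under JQ1 by 0.51 (SE 0.11, edgeR adjusted p 0.00709) and had 0.29 (SE 0.11, edgeR adjusted p 0.124) in DMSO. JQ1 raised it in knockout by 0.43 (SE 0.11, edgeR adjusted p 0.00545). Leaving out knockout JQ1 replicate 3, the lowest of its group at 21.5 CPM, the knockout difference under JQ1 was 0.61 (edgeR adjusted p 3.74e-04) and that in DMSO 0.29 (edgeR adjusted p 0.0323). Of its exon bases 58.3% lie opposite TXNDC17, which was higher in knockout by 0.59 (edgeR adjusted p 2.52e-04) and 0.51 (edgeR adjusted p 6.35e-04). TXNDC17 also rose with JQ1, by 0.65 in wild type (edgeR adjusted p 2.03e-05) and 0.57 in knockout (edgeR adjusted p 4.69e-05). The share of reads that could pass between the genes was not tested.

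MED11, MED31 and POLR2A lie on chromosome 17. Within 1 Mb on either side of MED11, 52 other genes were tested, with a median knockout log2 fold change of 0.36 in DMSO and 0.41 under JQ1, and 21 and 20 of them were called higher. Around MED31 the medians of 60 genes were 0.17 and 0.16, with 12 and 13 called higher. Around POLR2A those of 98 genes were 0.10 and 0.07, with 13 and 14 called higher and 2 and 4 lower. Of all genes tested 3.47% were higher in knockout in DMSO and 3.01% under JQ1. POLR2A, at 2.18, 1.24 and 1.16 CPM in knockout DMSO, had a knockout log2 fold change of 1.26 (SE 0.48, edgeR adjusted p 0.143), which passed in a fit of the DMSO groups alone (edgeR adjusted p 0.047). Around MED9, also on chromosome 17, the median was -0.07 in DMSO. The neighbours of NELFE on chromosome 6 had medians of 0.11 and 0.08 over 74 genes, with 14 and 13 called higher. For the other genes called between genotypes, neighbouring medians lay between -0.16 and 0.15. The part of copy number or of shared regional control in these values was not tested.

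POLR2F was at 86.3 to 87.5 CPM in knockout DMSO against 70.1 to 74.7 CPM in wild-type DMSO, and at 110 to 111 against 94.0 to 97.4 CPM under JQ1. Its knockout log2 fold change was 0.25 (SE 0.05, edgeR adjusted p 0.00419) and 0.21 (SE 0.05, edgeR adjusted p 0.0136). SOX10 lies opposite this locus, shares 1.26% of its exon bases and stood at 0.00 (SE 0.11) in both knockout contrasts. POLR2G, a subunit of the stalk that binds the new RNA, was higher in knockout by 0.27 (SE 0.06, edgeR adjusted p 0.00741) and 0.26 (SE 0.06, edgeR adjusted p 0.00856). It was at 47.2 to 50.2 CPM in wild-type DMSO, 57.9 to 60.9 CPM in knockout DMSO, 51.4 to 54.1 CPM in wild-type JQ1 and 60.1 to 64.5 CPM in knockout JQ1. Its call in DMSO was lost without wild-type DMSO replicate 3 (adjusted p 0.05), and the call of POLR2F under JQ1 was lost without wild-type JQ1 replicate 2 or 3 (adjusted p 0.056 and 0.0567, over alternatives up to 0.137). POLR2D, the other stalk subunit, was higher in knockout under JQ1 by 0.34 (SE 0.09, edgeR adjusted p 0.0329), but by 0.23 (edgeR adjusted p 0.0793) without knockout JQ1 replicate 3. That call was lost under 6 of 20 alternatives, with adjusted p from 0.0511 to 0.118, among them leaving out any 1 of the 3 JQ1 libraries of the wild type or its DMSO replicate 3.

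ELL2 was the gene called lower in knockout in both treatments, at a log2 fold change of -0.49 (SE 0.09, edgeR adjusted p 0.00384) in DMSO and of -0.38 (SE 0.09, edgeR adjusted p 0.0177) under JQ1. The JQ1 call was lost without wild-type JQ1 replicate 3 (adjusted p 0.0921) and in a fit of those 2 groups alone (0.0936). Within libraries ELL2 over ELL counts were 0.713, 0.708 and 0.639 in wild-type DMSO and 0.511, 0.404 and 0.396 in knockout DMSO, and 0.698, 0.695 and 0.924 against 0.643, 0.560 and 0.450 under JQ1, with no overlap in either treatment. AFF1 was lower in knockout DMSO, at 16.6, 20.9 and 19.2 CPM against 22.8, 26.5 and 24.7 CPM, a log2 fold change of -0.38 (SE 0.09, edgeR adjusted p 0.0202). Under JQ1 AFF1 had -0.26 (SE 0.09, edgeR adjusted p 0.117), and passed without knockout JQ1 replicate 3 (-0.32, edgeR adjusted p 0.0376) and with limma on the authors' signal (-0.31, adjusted p 0.0451). Its call in DMSO was lost on leaving out DMSO replicate 2 or 3 of the wild type or 1 or 3 of the knockout, with adjusted p from 0.0605 to 0.105.

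Of the 4 NELF genes 2 were called higher in knockout DMSO, where 3.47% of all genes tested were, and all 4 had a positive log2 fold change, as 46 of the 71 and 49.0% of all genes tested had. NELFCD was at 83.1, 80.1 and 90.6 CPM in wild-type DMSO and 108, 106 and 120 CPM in knockout DMSO, a rise of 0.40 (SE 0.07, edgeR adjusted p 0.00232). Under JQ1 it had 0.23 (SE 0.07, edgeR adjusted p 0.0643), with 85.3 to 100 CPM in wild type and 106 to 111 CPM in knockout, and passed with DESeq2 (adjusted p 0.033). NELFE was at 28.7, 25.4 and 27.7 CPM in wild-type DMSO and 32.7, 38.5 and 31.5 CPM in knockout DMSO, a difference of 0.33 (SE 0.09, edgeR adjusted p 0.0306), and 0.00 under JQ1. The NELFE call was lost under 7 of 20 alternatives, with adjusted p from 0.0511 to 0.154, among them leaving out any 1 DMSO library of the wild type or knockout DMSO replicate 2.

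MED19 was also called higher in knockout DMSO, at 0.25 (SE 0.07, edgeR adjusted p 0.0315), a call that was lost under 8 of 20 alternatives (adjusted p from 0.0563 to 0.151), among them without each of the 6 DMSO libraries in turn. Under JQ1 MED28 was higher in knockout, at 0.24 (edgeR adjusted p 0.0378), and lost that call under 12 alternatives (adjusted p from 0.0503 to 0.145), 9 of them single libraries left out. MED14 was lower in knockout JQ1, at 99.8, 98.2 and 85.5 CPM against 112, 116 and 114 CPM in wild-type JQ1, a log2 fold change of -0.27 (SE 0.06, edgeR adjusted p 0.0142). Without knockout JQ1 replicate 3 it was -0.20 (edgeR adjusted p 0.0167), and on leaving out wild-type JQ1 replicate 2 the call was lost (adjusted p 0.0629, over alternatives up to 0.114). MED13L was lower in knockout JQ1 (log2 fold change -0.21, edgeR adjusted p 0.0149), at 116, 126 and 120 CPM against 141, 140 and 138 CPM. Its call was lost on leaving out JQ1 replicate 1 or 2 of the wild type or 1 of the knockout, and in a fit of those 2 groups alone, with adjusted p from 0.0569 to 0.136. CDK19 did not pass over the 12 libraries, at -0.22 (SE 0.07, edgeR adjusted p 0.0895) in DMSO and -0.17 (SE 0.07, edgeR adjusted p 0.194) under JQ1, though its knockout libraries were below all wild-type libraries in both treatments. Leaving out knockout JQ1 replicate 3, the DMSO difference was called (-0.22, edgeR adjusted p 0.0189) and the JQ1 value was -0.10 (edgeR adjusted p 0.391). RTF1 of the PAF1 complex had 0.18 in DMSO (edgeR adjusted p 0.0673) and passed there without the same library (edgeR adjusted p 0.0194).

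**Figure D5:**
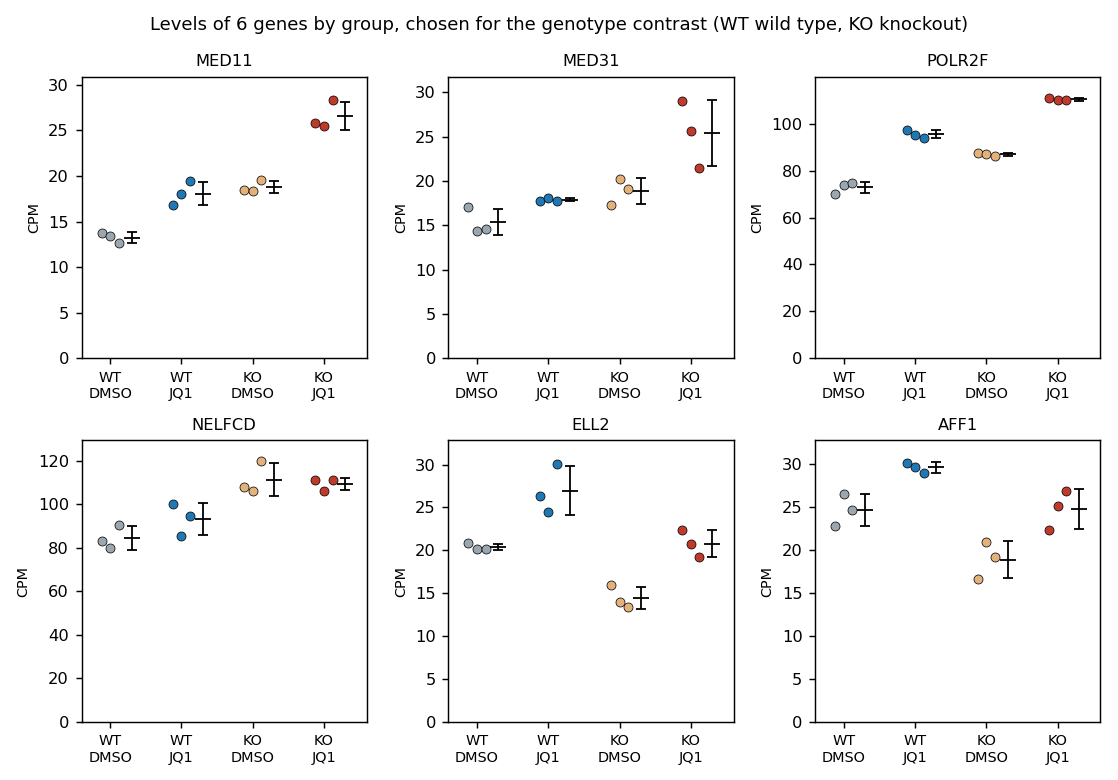
CPM of 6 genes in the 12 libraries, with the mean and SD of the 3 replicates beside each group; vertical axes start at 0. MED11 is highest in knockout JQ1 at 25.5 to 28.3 CPM, and ELL2 is lowest in knockout DMSO at 13.4 to 15.9 CPM.

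Whether JQ1 acted differently in knockout was tested by the interaction. None of the 71 genes passed by edgeR, DESeq2 or limma. By edgeR 0.134% of all genes tested did, and 0.0356% higher and 0.178% lower of those with at least 5 CPM. An unadjusted p under 0.05 by edgeR was found for 6 of the 71, beside 1817 of all 21698 genes tested. DESeq2 gave 5 of the 71. Of the 6 by edgeR the largest in size was MED19 at -0.37, followed by NELFE at -0.32 and POLR2D at 0.30. MED14 was at -0.22, POLR2L at 0.22 and MED13L at -0.17 (edgeR adjusted p from 0.233 to 0.588 over the 6). A call in 1 genotype alone, as for POLR2K, MED31 or NELFE, is therefore not shown to be a difference between genotypes.

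The 55 partner genes of the same machinery that lie outside the symbol rule, among them general initiation factors, P-TEFb with the 7SK particle and Integrator, were all tested. With JQ1 12 rose and 8 fell in wild type (21.8% and 14.5%, beside 16.9% and 16.2% of all genes tested) and 11 rose and 9 fell in knockout (20.0% and 16.4%, beside 16.7% and 17.8%). HEXIM1, the inhibitor of P-TEFb in the 7SK particle, rose by 0.79 (SE 0.06, edgeR adjusted p 4.11e-07) and 0.78 (SE 0.06, edgeR adjusted p 3.92e-07). The Integrator subunits INTS7 and INTS5 rose by 0.61 and 0.60 in wild type and 0.56 and 0.53 in knockout, and MLLT3, a reader of acetylated histones in the super elongation complex, by 0.48 and 0.31. SSRP1, the FACT partner of SUPT16H, fell by 0.24 (edgeR adjusted p 0.00122) in wild type and by 0.36 (edgeR adjusted p 3.89e-05) in knockout. Between genotypes 1 partner was called in DMSO (7.92% of all genes tested were) and 4 under JQ1 (8.57%). In DMSO it was GTF2F1, at 0.28 (edgeR adjusted p 0.0237). Under JQ1 GTF2E1 and GTF2H5 were higher at 0.29 each, SETD2 lower at -0.23 and INTS7 lower at -0.33 (edgeR adjusted p from 0.0169 to 0.039).

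The length of the locus along the genome was also read. The annotated locus of the 17 genes that rose in both genotypes had a median of 15.8 kb, against 42.1 kb for the 41 called in neither and 23.9 kb for the 3 that fell. Across the 71 genes Spearman's rho between locus length and log2 fold change was -0.21 in wild type and -0.32 in knockout, and across 14155 protein-coding genes tested it was -0.12 and -0.14. These correlations run across genes of the same libraries, which are not independent, and describe them only.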

How the data were processed

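RNA was sequenced in 12 libraries of A375 cells. Per the labels' protocols, libraries were rRNA-depleted and directional. The authors deposited estimated counts per gene symbol, and the submitters' processing notes name Trim Galore, cutadapt, FastQC, MultiQC, kallisto, DESeq2 and GRCh38.p10. The annotation and the use of strand are not given in the sources used here. A normalized signal, also deposited by the authors, is equal to the rounded count divided by a factor of the gene and library (library medians 0.816 to 1.22), and served only in alternatives.

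Estimated counts were rounded to whole numbers. Genes were filtered with filterByExpr over the 4 groups, scaled by TMM (factors 0.926 to 1.06) and fitted in 1 model with edgeR's quasi-likelihood test (edgeR 4.0.16, limma 3.58.1, R 4.3.3), checked on simulated data. Benjamini-Hochberg adjustment ran over 21698 genes, with a threshold of 0.05 and a prior count of 0.125. A called gene passed it, and SE is the size of the log2 fold change over the square root of F. CPM are per 1000000 counts of the TMM-scaled library, and their precision is limited by 3 replicates. Alternatives were other scalings, no filter, DESeq2 1.42.0, limma on log2(signal + 1), the groups compared only, a replicate block, an adjusted p of 0.01 and each library left out. The groups shared an estimate of the spread per gene, so leaving out a library also changed adjusted p in contrasts that do not hold it. Positions, exons and locus lengths came from GENCODE release 29, by symbol.

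Named genes were a list of core subunits and paralogs, the 5 largest called rises and falls per contrast, and up to 4 partner genes per contrast. POLR2F, POLR2H, POLR2K, POLR2C, MED8, MED9, MED16, MED17, MED20, MED23, MED24, MED27, TBCB, CD151, TXNDC17, FAM184B, SOX10, POLR2J2, POLR2J3 and POLR2J4, with other overlapping genes, were named after their values were seen. The members and lists were chosen with earlier results of these data known.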

Additional observations from a re-analysis of the deposited data

Results flagged for a closer look

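MED14 was the gene whose 3 JQ1 libraries all lay above the DMSO libraries in wild type and all below them in knockout. Its level was 110, 110 and 104 CPM in wild-type DMSO and 112, 116 and 114 CPM in wild-type JQ1, a log2 fold change of 0.08 (SE 0.06). In knockout it was 102, 103 and 108 CPM in DMSO and 99.8, 98.2 and 85.5 CPM in JQ1, a log2 fold change of -0.15 (SE 0.06). The difference of -0.22 (SE 0.09) was tested as an interaction and did not pass (edgeR adjusted p 0.512). Without knockout JQ1 replicate 3 the knockout value was -0.08 and the difference -0.15 (edgeR adjusted p 0.332). Of all genes tested, 24.4% had every JQ1 library above the DMSO libraries in wild type and 22.0% had them below in knockout. The share with both was not counted.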

How the results depend on the processing

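Over 20 alternatives each, the 67 calls gave 1340 values, of which 1209 kept their direction and side of the threshold, 131 no longer passed and 0 reversed; 38 calls were never lost. With JQ1, 15 of 25 wild-type and 17 of 25 knockout calls held under all 20, and 4 of 8 and 2 of 9 calls between genotypes. Shares of all genes called were not counted for libraries left out, groups fitted alone or the replicate block. Relative to its size, the number called between genotypes moved most. In DMSO it was 8, and 5 at an adjusted p of 0.01; leaving out each library in turn gave 4 (without wild-type DMSO replicate 3) to 11 (without knockout JQ1 replicate 3). Under JQ1 it was 9, but 2 in a fit of those groups alone and 3 at an adjusted p of 0.01; leaving out each library gave 4 to 10. With JQ1 those ranges were 20 to 34 in wild type and 21 to 31 in knockout, and 37 passed in wild type in a fit of its groups alone, and the interaction stayed at 0, with 2 to 10 genes at an unadjusted p under 0.05.

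Replicate numbers did not pair the libraries: the correlation of deviations between same-numbered libraries ran from -0.486 to 0.374, and 2 of 12 libraries correlated best with their own number. With the replicate block the counts were 20 higher and 4 lower in wild type, 22 and 4 in knockout, 5 and 2 in DMSO, 7 and 3 under JQ1, and 0 for the interaction. The block removed the calls of ELL (JQ1 in wild type, edgeR adjusted p 0.0527) and NELFE (knockout in DMSO, 0.0577), and added those of EAF2 (JQ1 in knockout, 0.047) and NELFCD (knockout in JQ1, 0.0408).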
